A study of Mus musculus with 12 samples.

Results

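The genes described here are 46 genes of DNA replication and mitosis, measured in mouse Eµ-Myc lymphoma cells in culture and in lymph nodes. They were taken from a list of symbols of replication, nucleotide supply, cyclin and spindle genes and matched by mouse symbol to 46 of the 56748 gene IDs in the count files. Of these, 24 act at the start of or during S phase and 22 in mitosis. All 46 passed the filter on low counts, and the lowest count of any of them in a library was 118.

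Eµ-Myc lymphoma is a mouse B cell lymphoma driven by a Myc transgene under the immunoglobulin heavy chain enhancer. Poly(A) RNA was sequenced from 12 libraries in 3 groups of 4. The culture group is the lymphoma cell line taken directly from culture. The lymphatic group is the same line sorted from lymph nodes of C57BL/6J mice on day 11 after injection, having spread through lymphatic vessels, and the hematogenous group is the line sorted from lymph nodes on day 18, having spread through the blood. All groups carry the same transgene. The route of spread and the day of collection differ together, so their effects cannot be told apart. Cultured cells are also labelled as lymph node tissue, while their titles say culture, and groups here follow the titles. Age and sex of the mice, the sort gate and the site of injection are not given in the sources used here. Nor do the labels state that replicates are separate mice or flasks. P-values here therefore speak of the spread among these samples, which may be technical.

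A cell commits to division when cyclin E and E2F factors turn on the genes of S phase. In G1 the origin recognition complex, Cdc6 and Cdt1 load the Mcm helicase onto DNA, and in S phase Cdc45 and the GINS complex activate it so that polymerases, held by the PCNA clamp, can copy the genome from nucleotides made by ribonucleotide reductase and thymidylate synthase. Mitosis is then driven by cyclin B with Cdk1, checked by Bub and Mad proteins at the kinetochores, carried out by kinesin motors and Aurora and Polo kinases, and ended by the anaphase-promoting complex. Myc promotes entry into this cycle, and Eµ-Myc lymphomas are known for rapid division.

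Assigned counts ran from 5286775 to 25302016 per library, and the 46 genes together took 1.11% to 1.28% of them in 11 libraries and 0.889% in lymphatic 4. The B cell genes Cd79a and Pax5 were present in every library, at 285 CPM (counts scaled to a common library size with TMM factors) or more. The 8 B cell identity markers summed to 2276 to 2383 CPM in culture, 2211 to 2888 CPM in lymphatic and 3235 to 3463 CPM in hematogenous libraries. Lymphatic 4 stood apart from the other 11 libraries. Ribosomal protein genes took 16.0% of its counts, against 7.60% to 9.86%, and its TMM scaling factor was 0.893 against 0.993 to 1.03. All 14 T cell markers were matched, and their summed level was 1.39 to 4.94 CPM in the culture group, 26.3 to 50.1 CPM in lymphatic 1 to 3, 122 CPM in lymphatic 4 and 8.57 to 22.4 CPM in the hematogenous group. Among them Cd3d, Cd4, Cd8a, Trbc1, Trbc2 and Cd5 were at 0 in culture. The 12 macrophage and monocyte markers summed to 15.6 to 20.9 CPM in the culture group, 58.9 to 123 CPM in the lymphatic group and 30.7 to 44.9 CPM in the hematogenous group, with Lyz2, Fcgr1, C1qa, C1qb and C1qc at 0 in culture. The 8 NK cell markers were instead higher in culture, at 18.7 to 22.8 CPM, than in the lymphatic (1.28 to 5.44 CPM) and hematogenous groups (0.190 to 1.07 CPM). Erythroid markers, 7 of 8 matched, summed to 11.4 to 29.8, 2.30 to 15.1 and 3.11 to 6.35 CPM in culture, lymphatic and hematogenous libraries. The 11 stromal and endothelial markers summed to 75.9 to 80.5, 80.1 to 115 and 139 to 167 CPM. Of these Pecam1 alone was at 72.5 to 163 CPM, and 8 were at 0 in the hematogenous group. The 9 plasma cell markers summed to 362 to 395, 465 to 561 and 440 to 494 CPM. Such sums are therefore not a pure measure of host cells, and the part of host cells in the results below was not tested.

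The values of lymphatic 4 differed from those of lymphatic 1 to 3 by transcript length. Mki67, the proliferation antigen that coats mitotic chromosomes, has a principal transcript of 10061 bases and was at 422 CPM in lymphatic 4 against 1360, 1409 and 1234 CPM in lymphatic 1 to 3. Pole, the leading strand polymerase, with 7163 bases, was at 54.98 CPM against 199, 210.2 and 205 CPM. Short transcripts lay on the other side. Birc5, the survivin subunit of the chromosomal passenger complex, with 947 bases, was at 280 CPM against 152, 153 and 144 CPM, and Ube2c, the ubiquitin-conjugating enzyme of the anaphase-promoting complex, with 967 bases, was at 340.3 CPM against 195, 176 and 173 CPM. All 12 genes with transcripts of up to 2000 bases were higher in lymphatic 4 than the mean log2 CPM of lymphatic 1 to 3, by a median of 0.48 on the log2 scale. Of the 26 genes of 2000 to 4000 bases, 9 were higher and 17 lower (median −0.10), and of the 8 genes over 4000 bases 7 were lower (median −1.11), the exception being Cdk1 at 0.56. Each library was set against the mean log2 CPM of the other libraries of its group. Spearman's rho between transcript length and this deviation was −0.72 across the 46 genes in lymphatic 4 and −0.57 across 13320 tested genes. Other libraries varied with length too, with rho across the 46 genes from −0.62 in culture 1 to 0.67 in lymphatic 1, but the size of the deviations was largest in lymphatic 4, with an SD over the 46 genes of 0.69 on the log2 scale against 0.08 to 0.43 in the other 11. Against GC content rho was −0.75 in lymphatic 2 across the 46 genes and −0.62 across the 13320, and from −0.58 in culture 3 to 0.57 in culture 1 across the 46 genes in the other 11 libraries. Lymphatic 2 also varied with length (0.54 across the 46 genes). For lymphatic 1 to 3 the mean they are set against includes lymphatic 4. Their rho and SD values, for length and GC content, are therefore not independent of those of lymphatic 4. Genes are not independent replicates, and those of a library share its preparation and depth. Calls among the 46 genes are therefore given with and without lymphatic 4, and other values are from all 12 libraries unless stated.

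**Figure D1:**
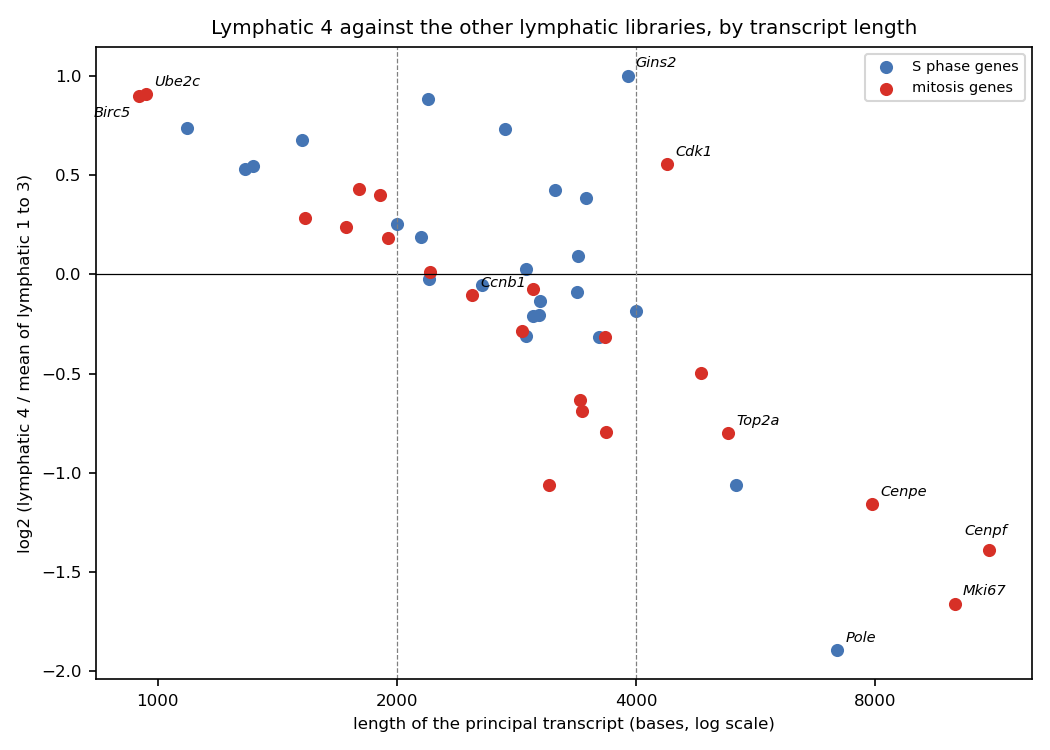
Each point is one of the 46 genes. The x axis is the length of its principal transcript in bases on a log scale, and the y axis is log2 CPM in lymphatic 4 minus the mean log2 CPM of lymphatic 1 to 3, with dashed lines at 2000 and 4000 bases. All 12 genes of up to 2000 bases lie above 0, and 7 of the 8 genes over 4000 bases lie below it.

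Taken as means over all their members, the levels of both subsets overlapped between the groups. The mean log2 CPM of the 24 S phase genes was 6.96 to 7.04 in the culture group, 6.97 to 7.08 in the lymphatic group and 6.77 to 7.07 in the hematogenous group. That of the 22 mitosis genes was 7.74 to 7.80 in the culture group, 7.65 in lymphatic 4, 7.79 to 7.97 in its 3 fellow libraries and 7.66 to 7.92 in the hematogenous group. Both ranges of the lymph node groups overlapped the culture range, with or without lymphatic 4. In the mitosis genes lymphatic 1 and 2 (7.97 and 7.95) and hematogenous 1, 3 and 4 (7.92, 7.87 and 7.83) were above every culture library. Lymphatic 3 (7.79) lay within the culture range, and lymphatic 4 and hematogenous 2 lay below it. Hematogenous libraries 1 and 2 lay at opposite ends of their own group. Hematogenous 1 was the lowest of its group in 20 of 24 S phase genes and the highest in 10 of 22 mitosis genes, and hematogenous 2 was the highest in 14 of 24 S phase genes and the lowest in 19 of 22 mitosis genes. The gap between the subsets, mitosis minus S phase, was 1.14 in hematogenous 1 and 0.59 in hematogenous 2, against 0.70 to 0.80 in the 4 culture libraries. These levels are a description and were not tested.

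**Figure D2:**
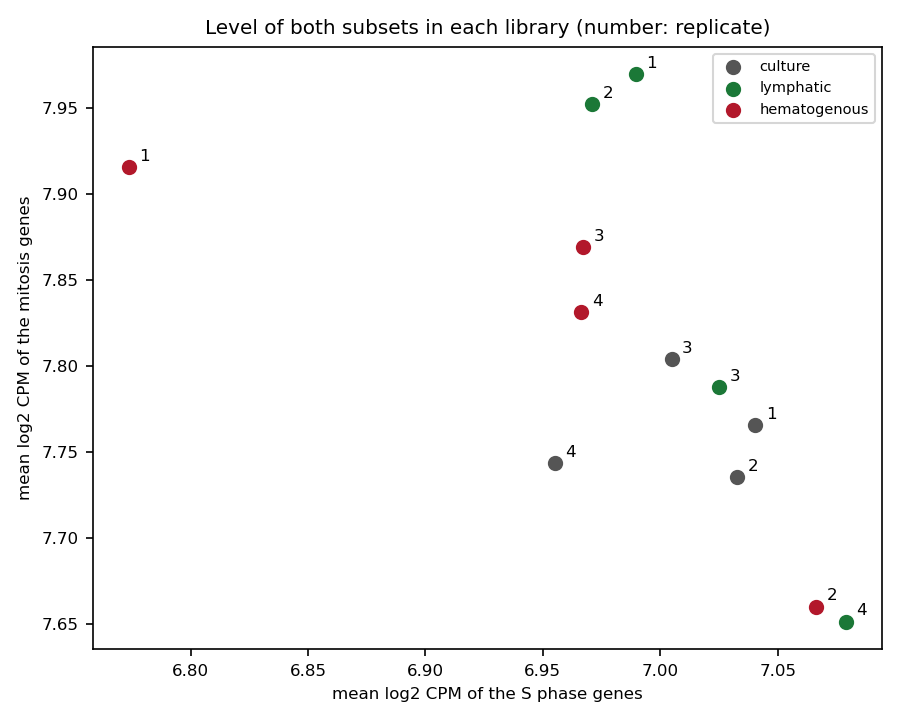
Each point is a library, with the mean log2 CPM of the 24 S phase genes on the x axis and of the 22 mitosis genes on the y axis, numbered by replicate. Culture libraries lie close together, hematogenous 1 (6.77, 7.92) and hematogenous 2 (7.07, 7.66) lie apart within their group, and lymphatic 4 (7.08, 7.65) lies apart from lymphatic 1 to 3.

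**Figure D3:**
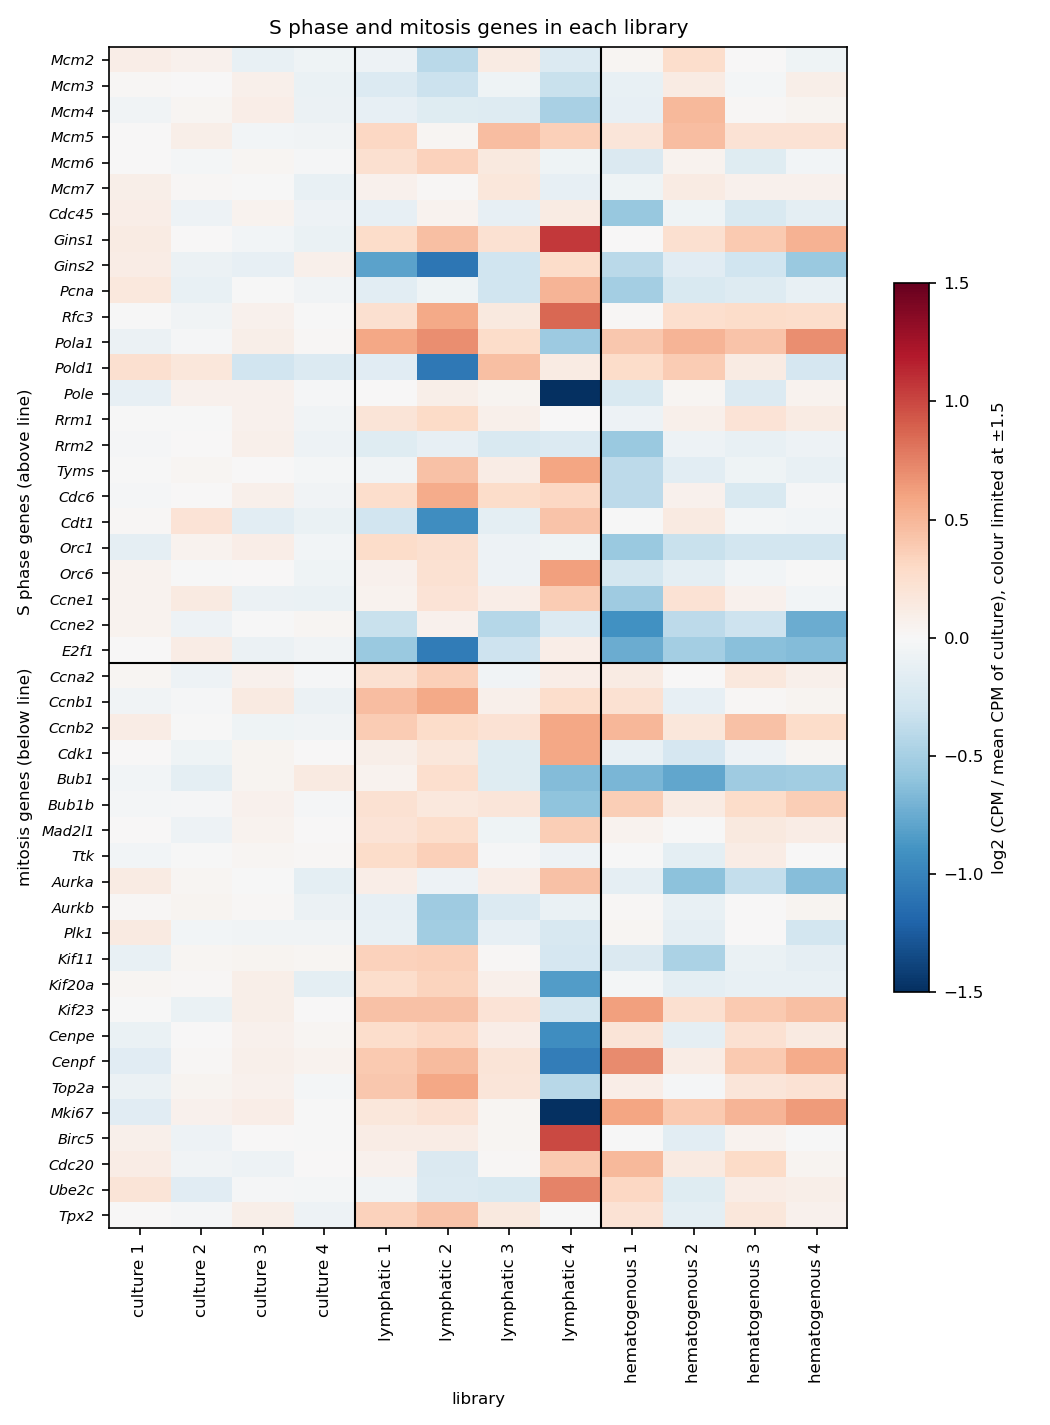
Rows are the 46 genes, S phase above the line and mitosis below, columns are the 12 libraries, and colour is log2 of CPM over the culture mean, limited at ±1.5. E2f1 and Ccne2 are below culture in all 4 hematogenous libraries, as is Bub1, and lymphatic 4 departs from lymphatic 1 to 3 in both directions.

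Single genes did change. In the fit of all 12 libraries 12 of the 46 genes passed an adjusted p of 0.05 in at least 1 of the 3 comparisons, 7 of S phase and 5 of mitosis. This is 26.1% of them, where 43.8% of all genes tested passed in at least 1. The fit without lymphatic 4 brought the count to 27, with all 12 kept, which is 58.7%, where 59.3% of all genes passed. Changes were small, and in the fit of all libraries none exceeded a fold of 1.58, the size for Mki67 between the routes, which did not pass, and the largest that passed was 1.55-fold, for E2f1. Differences below are log2 fold changes ± SE with edgeR adjusted p over all genes tested, 13535 with all libraries and 13768 without lymphatic 4. In these bulk libraries a smaller share of cells in a phase and less RNA of a gene per cell cannot be told apart.

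**Figure D4:**
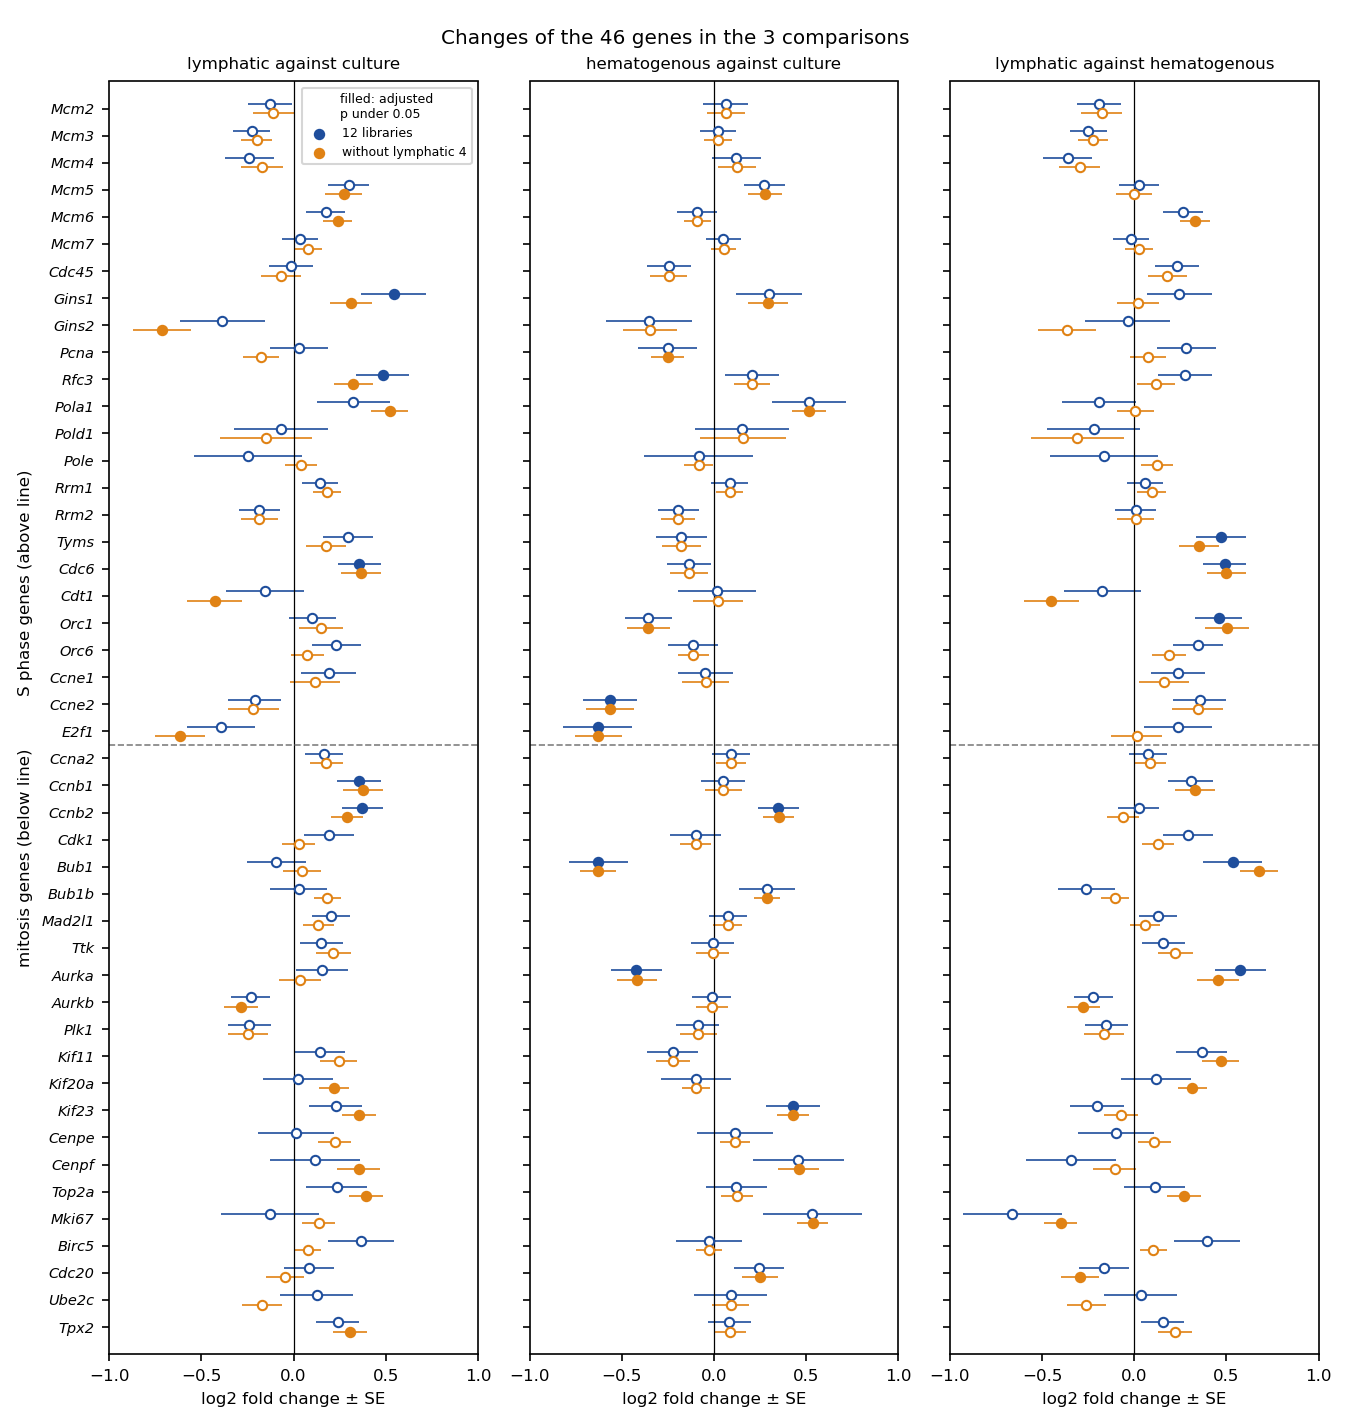
For each of the 46 genes (rows) the log2 fold change with its SE is shown in the 3 comparisons, in blue from all 12 libraries and in orange without lymphatic 4, filled where adjusted p is under 0.05. Filled blue points number 5, 6 and 5 from left to right, and filled orange points number 17, 15 and 14.

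Promoters of the 2 subsets are known to carry different elements, E2F sites in S phase genes and the CHR element with CCAAT boxes in mitosis genes. RefSeq windows of the 250 bases before the transcription start (GRCm38.p6) were found for 37 of the 46 genes, 38 windows in all. The E2F letters searched on both strands were TTTCGCGC, TTTGGCGC, TTTCCCGC and TTTGCCGC, the CHR letters TTTGAA and TTCGAA, and the third motif was CCAAT. No motif's letters contain another's. E2F letters stood in 35% of the 20 S phase windows, 5.56% of the 18 mitosis windows and 1.86% of all 32851 windows. CHR letters stood in 20%, 44.4% and 17.2% of them, and CCAAT in 70%, 88.9% and 33.9%. Windows are shown for 4 genes whose levels changed, an S phase gene with E2F letters (Cdc6), an S phase gene with all 3 motifs (Rfc3), a mitosis gene with CHR and CCAAT letters (Ccnb2) and a mitosis gene with CCAAT letters alone (Bub1). Capitals mark the motifs on either strand, and a match is a description, not a shown site. Cdc6 lies on the plus strand (chr11:98907901-98908150), and Rfc3 (chr5:151651209-151651458), Ccnb2 (chr9:70421555-70421804) and Bub1 (chr2:127831860-127832109) lie on the minus strand, each printed 5′ to 3′ toward its start site.
Cdc6: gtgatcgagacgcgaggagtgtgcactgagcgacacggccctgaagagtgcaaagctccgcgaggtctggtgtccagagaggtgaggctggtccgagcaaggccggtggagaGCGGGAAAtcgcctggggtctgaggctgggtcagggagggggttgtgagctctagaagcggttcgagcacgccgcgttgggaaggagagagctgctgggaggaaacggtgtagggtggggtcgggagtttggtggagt
Rfc3: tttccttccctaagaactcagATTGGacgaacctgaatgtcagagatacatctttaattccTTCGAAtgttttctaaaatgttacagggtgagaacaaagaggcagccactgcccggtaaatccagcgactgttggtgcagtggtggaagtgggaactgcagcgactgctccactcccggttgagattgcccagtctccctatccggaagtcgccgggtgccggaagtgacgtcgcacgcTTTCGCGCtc
Ccnb2: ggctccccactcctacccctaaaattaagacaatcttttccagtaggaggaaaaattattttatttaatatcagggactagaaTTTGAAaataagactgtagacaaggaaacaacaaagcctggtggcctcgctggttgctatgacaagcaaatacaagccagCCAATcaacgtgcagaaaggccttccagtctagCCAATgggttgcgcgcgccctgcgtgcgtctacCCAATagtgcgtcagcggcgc
Bub1: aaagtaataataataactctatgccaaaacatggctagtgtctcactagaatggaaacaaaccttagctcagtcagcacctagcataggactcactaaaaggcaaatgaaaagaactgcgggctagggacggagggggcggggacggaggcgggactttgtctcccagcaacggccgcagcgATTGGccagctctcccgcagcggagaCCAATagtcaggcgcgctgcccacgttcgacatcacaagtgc

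The first comparison asks how lymphoma cells that spread through lymphatic vessels differ from cultured cells. In the fit of all 12 libraries 5 of the 46 genes rose and 0 fell: Gins1, Rfc3 and Cdc6 of S phase and Ccnb1 and Ccnb2 of mitosis. This is 10.9% of the genes higher, where 13.4% of all genes tested were called higher, and 0% lower, where 13% of all genes were. At an unadjusted p under 0.05 edgeR gave 7 genes higher and 2 lower, and the share of all genes at that threshold is not given here. DESeq2 and limma-voom also called 0 of the 46 lower, where they called 1945 and 1898 of all 13535 genes lower. The median change was 0.03 over the 24 S phase genes and 0.15 over the 22 mitosis genes, against 0.04 over all genes, and 0.06, 0.18 and −0.01 without lymphatic 4. Groups did not overlap in 8 of 46 genes (17.4%), higher in Gins1, Rfc3, Cdc6 and Ccnb2 and lower in Mcm4, Rrm2, Aurkb and Plk1, where 30.1% of all genes did not overlap. Without lymphatic 4 the count was 19 (41.3%), 13 higher and 6 lower, where 39.9% of all genes did not overlap.

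Gins1, a GINS subunit of the active helicase, was at 47.4, 43.4, 42.1 and 40.6 CPM across culture 1 to 4, 52.5, 59.3, 50.6 and 90.3 across lymphatic 1 to 4 and 43.5, 51.4, 57.0 and 62.1 across hematogenous 1 to 4. All lymphatic libraries were above all culture libraries, with lymphatic 4 far above the rest. Gins1 rose by 0.54 ± 0.18 (adjusted p = 0.0356), a 1.46-fold change, and by 0.31 ± 0.11 without lymphatic 4, with adjusted p over the 23 alternative analyses from 0.00821 to 0.158. Rfc3, a subunit of the loader that places PCNA on DNA, was at 51.1, 49.3, 53.4 and 51.0 CPM across culture 1 to 4, 60.4, 76.1, 56.5 and 93.2 across lymphatic 1 to 4 and 51.9, 61.1, 62.1 and 61.7 across hematogenous 1 to 4. It too was higher in every lymphatic library than in every culture library, and highest in lymphatic 4. Rfc3 rose by 0.48 ± 0.15 (adjusted p = 0.0252), and by 0.32 ± 0.11 without lymphatic 4, with adjusted p from 0.00787 to 0.0794 over the alternatives. Cdc6, which loads the helicase at origins, was at 81.9, 83.0, 87.1 and 79.6 CPM across culture 1 to 4, 99.7, 122, 99.99 and 103 across lymphatic 1 to 4 and 63.2, 86.9, 70.5 and 81.7 across hematogenous 1 to 4. Its lymphatic libraries were above culture and above hematogenous libraries without overlap, and lymphatic 4 lay among the others. Cdc6 rose by 0.36 ± 0.12 (adjusted p = 0.0368), a 1.28-fold change, and by 0.36 ± 0.11 without lymphatic 4, with adjusted p from 0.0148 to 0.1003 over the alternatives.

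Both B cyclins rose. Ccnb1, the main partner of Cdk1 at entry into mitosis, was at 222, 227, 252 and 215 CPM across culture 1 to 4, 315, 339.6, 243 and 275 across lymphatic 1 to 4 and 269, 211, 232 and 236 across hematogenous 1 to 4. Lymphatic 3 lay within the culture range, so the groups overlapped. Ccnb1 rose by 0.35 ± 0.12 (adjusted p = 0.0434), and by 0.38 ± 0.11 without lymphatic 4, with adjusted p from 0.0128 to 0.214 over the alternatives. Ccnb2, the second B cyclin, was at 107, 98.5, 94.9 and 95.6 CPM across culture 1 to 4, 129, 120.2, 115 and 148 across lymphatic 1 to 4 and 139, 111, 134 and 119.8 across hematogenous 1 to 4. All 8 lymph node libraries were above all 4 culture libraries. Ccnb2 rose by 0.37 ± 0.11 (adjusted p = 0.0233), a 1.29-fold change, and by 0.29 ± 0.09 without lymphatic 4, with adjusted p from 0.00673 to 0.147 over the alternatives. Gins1, Rfc3 and Ccnb2, each highest in lymphatic 4, have transcripts of 1087, 1317 and 1531 bases. These are in the class of up to 2000 bases, whose genes were all higher in lymphatic 4. Cdc6 and Ccnb1 are longer, with 2559 and 2489 bases. The part of transcript length in the 5 calls was not tested.

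The 5 calls were not kept in every analysis. Without culture 1 only Ccnb2 of the 5 was called, without culture 2, 3 or 4 none was (0 members), without lymphatic 2 the count was 2 of the 5 and without hematogenous 3 it was 3, and an offset for transcript length and GC content kept 0 of the 5. The offset called 4 other members higher and 2 lower, and 2151 and 2203 of all genes. Over all genes the 1816 called higher became 1412, 1317, 1411 and 1323 without culture 1 to 4. They became 1803 without lymphatic 2 and 1669 without hematogenous 3. With lymphatic 4 left out, by contrast, 13 genes were called higher and 4 lower, 28.3% and 8.70% of the 46, where 17.7% and 17.9% of all genes were. The S phase genes called higher were then Mcm5, Mcm6, Gins1, Rfc3, Pola1 and Cdc6, and the mitosis genes Ccnb1, Ccnb2, Kif20a, Kif23, Cenpf, Top2a and Tpx2. Those called lower were Gins2, Cdt1, E2f1 and Aurkb.

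The second comparison asks the same of cells that spread through the blood, against the same culture libraries, so that it is not independent of the first. In the fit of all 12 libraries 2 of the 46 genes rose, Ccnb2 and Kif23, and 4 fell, E2f1 and Ccne2 of S phase entry and Bub1 and Aurka of mitosis. These are 4.35% and 8.70% of the genes, where 13.9% of all genes tested were called higher and 13.9% lower. The median change was −0.06 for the S phase genes and 0.08 for the mitosis genes, against −0.00075 over all genes. Groups did not overlap in 14 of 46 genes (30.4%), 7 in each direction, where 43.6% of all genes did not overlap.

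E2f1, a transcription factor of S phase genes, was at 64.8, 69.8, 60.8 and 62.3 CPM across culture 1 to 4, 43.9, 31.2, 52.1 and 69.1 across lymphatic 1 to 4 and 38.5, 45.1, 41.7 and 41.2 across hematogenous 1 to 4. The 4 hematogenous libraries lay close together below every culture library, while the lymphatic libraries spread from the lowest value of all, in lymphatic 2, to near the highest, in lymphatic 4. E2f1 fell by 0.63 ± 0.19 (adjusted p = 0.0208) on the log2 scale, a 1.55-fold change, and by 0.63 ± 0.13 without lymphatic 4, with adjusted p from 6.07e-06 to 0.0667 over the alternatives. Against culture its lymphatic difference was −0.39 ± 0.18 (adjusted p = 0.135), which did not pass, and −0.62 ± 0.14 without lymphatic 4, which did. Ccne2, the second E cyclin, was at 91.7, 84.3, 88.5 and 90.1 CPM across culture 1 to 4, 70.5, 93.0, 65.8 and 77.0 across lymphatic 1 to 4 and 47.3, 67.7, 71.7 and 52.8 across hematogenous 1 to 4. All hematogenous libraries were below culture, as were lymphatic 1, 3 and 4, while lymphatic 2 was the highest library of all. Ccne2 fell by 0.56 ± 0.15 (adjusted p = 0.00954) on the log2 scale, and by 0.56 ± 0.13 without lymphatic 4, and passed in all 23 alternatives (adjusted p 0.000327 to 0.0351). The other E cyclin, Ccne1, was at 47.6, 50.2, 43.0 and 42.6 CPM across culture 1 to 4, 47.6, 52.7, 49.3 and 59.5 across lymphatic 1 to 4 and 31.7, 53.3, 47.9 and 44.6 across hematogenous 1 to 4. Its groups overlapped, with hematogenous 1 the lowest library, and its log2 difference against culture was −0.05 ± 0.15 (adjusted p = 0.861) in hematogenous and 0.19 ± 0.15 (adjusted p = 0.377) in lymphatic libraries, and −0.04 ± 0.13 and 0.12 ± 0.14 without lymphatic 4.

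Bub1, a kinase of the spindle checkpoint that recruits other checkpoint proteins to kinetochores, was at 196, 181, 207 and 220.2 CPM across culture 1 to 4, 208, 240.2, 177 and 128 across lymphatic 1 to 4 and 125, 117, 139 and 140.0 across hematogenous 1 to 4. Every hematogenous library was below every culture library, and of the lymphatic libraries only lymphatic 4 reached the hematogenous range. Bub1 fell by 0.63 ± 0.16 (adjusted p = 0.00883) on the log2 scale, a 1.54-fold change, and by 0.63 ± 0.10 without lymphatic 4, and passed in all 23 alternatives (adjusted p 2.52e-06 to 0.0319). Aurka, the kinase of centrosomes and spindle poles, was at 96.5, 90.3, 88.5 and 80.1 CPM across culture 1 to 4, 95.4, 84.5, 94.9 and 121 across lymphatic 1 to 4 and 80.8, 57.9, 69.5 and 57.0 across hematogenous 1 to 4. Hematogenous 1 just overlapped the lowest culture library, and the other 3 were below it. Aurka fell by 0.42 ± 0.14 (adjusted p = 0.0376) on the log2 scale, and by 0.42 ± 0.11 without lymphatic 4, with adjusted p from 0.00257 to 0.114 over the alternatives.

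Ccnb2, whose values are given above, rose by 0.35 ± 0.11 (adjusted p = 0.0298) in hematogenous libraries, and by 0.35 ± 0.08 without lymphatic 4, with adjusted p from 0.00116 to 0.108 over the alternatives. Kif23, a kinesin of the central spindle needed for cytokinesis, was at 128, 119.9, 137 and 129.5 CPM across culture 1 to 4, 174, 174, 148 and 106 across lymphatic 1 to 4 and 197, 152, 168 and 176 across hematogenous 1 to 4. All hematogenous libraries and lymphatic 1 to 3 were above culture, and lymphatic 4 was the lowest of all. Kif23 rose by 0.43 ± 0.15 (adjusted p = 0.0414), and by 0.43 ± 0.09 without lymphatic 4, with adjusted p from 0.000182 to 0.123 over the alternatives. Leaving out culture 2 kept 2 of the 6 calls, Ccne2 and Bub1, and leaving out culture 3, hematogenous 1 or hematogenous 3 kept 3. Over all genes the 1880 called higher and 1880 called lower became 1587 to 1630 and 1609 to 1638 in those fits. Without lymphatic 4, 9 genes were called higher (19.6% of the 46, against 21.8% of all genes) and 6 lower (13.0%, against 21.3%). The additions were Mcm5, Gins1, Pola1, Bub1b, Cenpf, Mki67 and Cdc20 higher and Pcna and Orc1 lower. Lymphatic 4 is in neither group compared here and enters through the spread, scaling and filter of the joint fit.

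**Figure D5:**
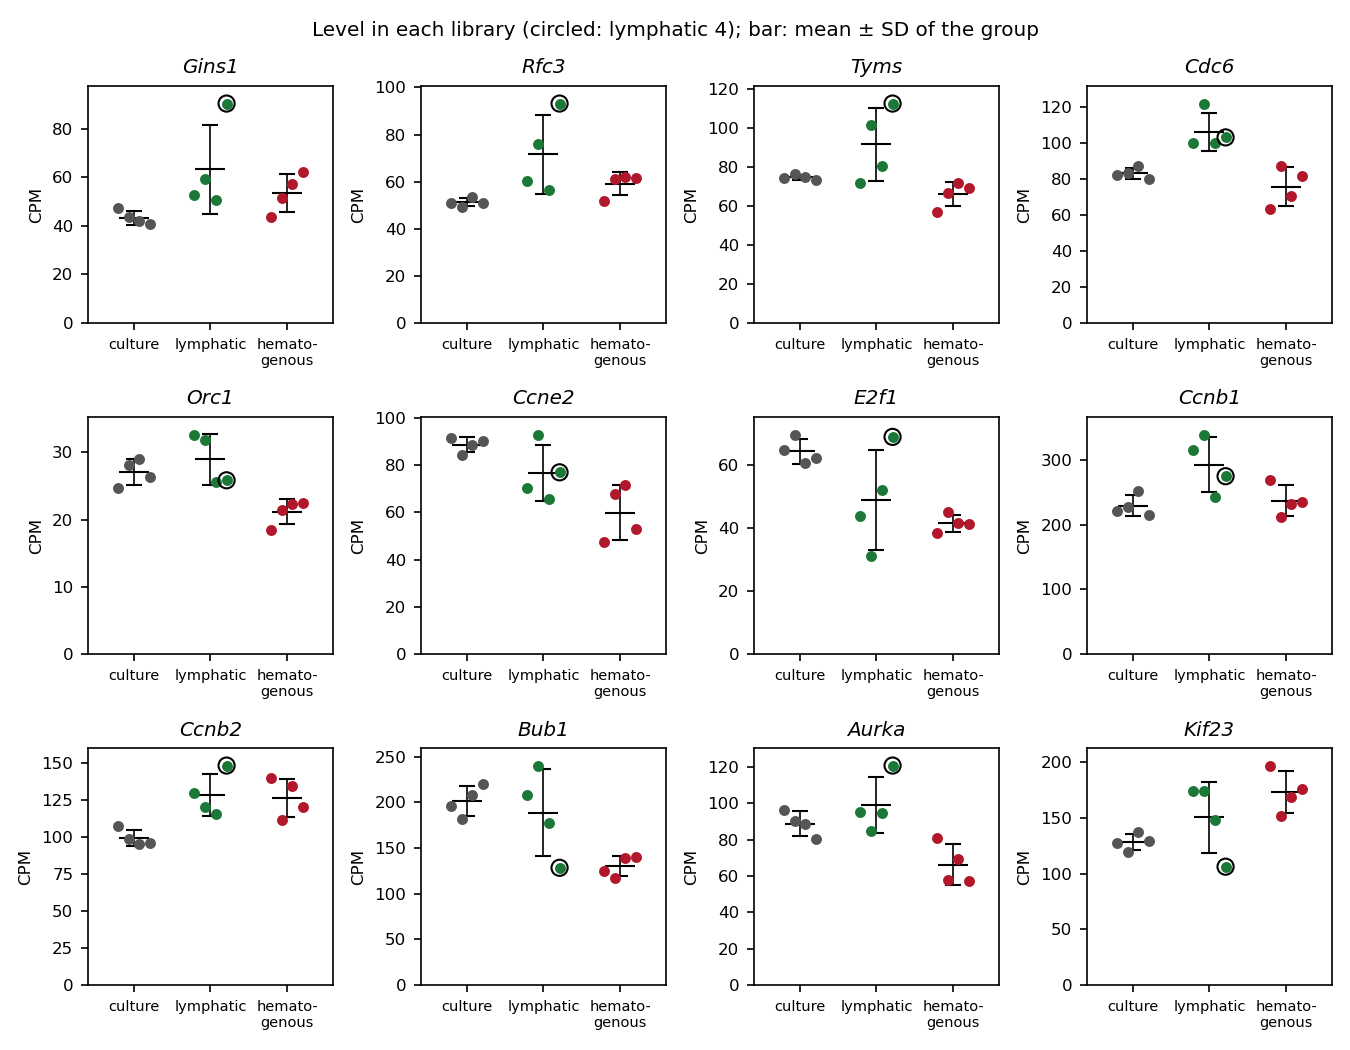
CPM of the 12 genes called in the fit of all 12 libraries, one panel a gene, one point a library, with the group mean and SD as a bar and lymphatic 4 circled. Hematogenous libraries lie below culture in Ccne2, E2f1 and Bub1, and lymphatic 4 is the highest library in Gins1, Rfc3, Tyms, Ccnb2 and Aurka and the lowest in Kif23.

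The third comparison sets the lymph node groups against each other. In the fit of all 12 libraries 5 of the 46 genes were higher in lymphatic than in hematogenous libraries, Cdc6, Orc1 and Tyms of S phase and Bub1 and Aurka of mitosis, and 0 were lower. This is 10.9% higher, where 11.4% of all genes tested were, and 0% lower, where 10.9% were. At an unadjusted p under 0.05 edgeR gave 11 genes higher and 3 lower, and after adjustment limma-voom called 0 lower and DESeq2 2. The shares of all genes for these counts are not given here. The median difference was 0.15 for the S phase genes and 0.09 for the mitosis genes, against 0.03 over all genes. Without lymphatic 4 these were 0.05, 0.09 and −0.0064, and without hematogenous 1 the S phase median was 0.04. Groups did not overlap in 6 of 46 genes (13.0%), where 24.6% of all genes did not overlap, and without lymphatic 4 in 12 (26.1%), where 33.9% of all genes did not.

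Cdc6 was 1.40-fold higher in lymphatic libraries, a difference of 0.49 ± 0.12 (adjusted p = 0.00870), or 0.50 ± 0.11 without lymphatic 4, and passed in all 23 alternatives (adjusted p 0.000871 to 0.0399). Orc1, the largest subunit of the origin recognition complex, was at 24.7, 28.1, 29.0 and 26.4 CPM across culture 1 to 4, 32.7, 31.8, 25.6 and 25.9 across lymphatic 1 to 4 and 18.5, 21.5, 22.3 and 22.4 across hematogenous 1 to 4. The hematogenous libraries were below all others. Orc1 was higher in lymphatic libraries by 0.46 ± 0.13 (adjusted p = 0.0202), or 0.51 ± 0.12 without lymphatic 4, with adjusted p from 0.00316 to 0.0952 over the alternatives. Tyms, which makes thymidylate for DNA, was at 74.4, 76.4, 75.1 and 73.2 CPM across culture 1 to 4, 72.0, 102, 80.5 and 113 across lymphatic 1 to 4 and 57.2, 66.9, 71.7 and 69.1 across hematogenous 1 to 4. Lymphatic libraries were above hematogenous ones, narrowly in lymphatic 1, and highest in lymphatic 4. Tyms was higher by 0.47 ± 0.14 (adjusted p = 0.0248), or 0.35 ± 0.11 without lymphatic 4, with adjusted p from 0.00927 to 0.0903 over the alternatives. Aurka was higher by 0.57 ± 0.14 (adjusted p = 0.00974), or 0.45 ± 0.11 without lymphatic 4, and passed in all 23 alternatives (adjusted p 0.00142 to 0.0380). Aurka and Tyms, both highest in lymphatic 4, have transcripts of 1905 and 3163 bases. Bub1 was higher by 0.53 ± 0.16 (adjusted p = 0.0284), or 0.67 ± 0.10 without lymphatic 4, with adjusted p from 0.000143 to 0.0838 over the alternatives.

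A fit of the lymph node groups alone kept 2 of the 5 calls, as did leaving out hematogenous 1, while leaving out lymphatic 1, lymphatic 2 or hematogenous 2 kept 3. Without lymphatic 3 all 5 were kept and 9 genes were called. Over all genes the 1542 called higher became 910 in the fit of the lymph node groups alone and 930 without hematogenous 1. They became 1475, 1673, 1141 and 1713 without lymphatic 1, lymphatic 2, hematogenous 2 and lymphatic 3. Without lymphatic 4, 10 genes were called higher (21.7% of the 46, against 15.1% of all genes) and 4 lower (8.70%, against 16.4%). The additions were Mcm6, Ccnb1, Kif11, Kif20a and Top2a higher and Cdt1, Aurkb, Mki67 and Cdc20 lower.

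Differences that passed only without lymphatic 4 follow by role, with those of Mcm2 and Cdk1, which passed in neither fit. Of the helicase genes, Mcm5 was at 297, 313, 287 and 284 CPM across culture 1 to 4, 366, 301, 407 and 378 across lymphatic 1 to 4 and 335, 406, 343 and 342 across hematogenous 1 to 4. Lymphatic 1, 3 and 4 and all hematogenous libraries were above culture, and lymphatic 2 lay within its range. Its log2 difference against culture was 0.30 ± 0.11 (adjusted p = 0.0617) in lymphatic and 0.27 ± 0.11 (adjusted p = 0.0852) in hematogenous libraries, and 0.27 ± 0.10 and 0.27 ± 0.09 without lymphatic 4, when both passed. Mcm6 was at 543, 529.7, 551 and 533 CPM across culture 1 to 4, 638, 684, 596 and 515 across lymphatic 1 to 4 and 465, 561, 475 and 524 across hematogenous 1 to 4. Lymphatic 1 to 3 were above every other library, and lymphatic 4 was below every culture library. Without lymphatic 4 Mcm6 rose by 0.24 ± 0.08 against culture and was higher by 0.33 ± 0.08 than in hematogenous libraries, against 0.17 ± 0.11 (adjusted p = 0.257) and 0.27 ± 0.11 (adjusted p = 0.0906) with it. Gins2, another GINS subunit, was at 43.4, 37.5, 36.9 and 42.3 CPM across culture 1 to 4, 22.9, 18.9, 32.4 and 48.5 across lymphatic 1 to 4 and 30.2, 35.5, 32.5 and 27.2 across hematogenous 1 to 4. Lymphatic 1 to 3 were below culture and lymphatic 4 above it. Its log2 difference in lymphatic libraries was −0.39 ± 0.23 (adjusted p = 0.242), and −0.71 ± 0.16 without lymphatic 4, which passed and was a 1.64-fold drop. The log2 difference of Gins1 in hematogenous libraries was 0.30 ± 0.18 (adjusted p = 0.245), and 0.30 ± 0.11 without lymphatic 4, which passed. Mcm2, often used as a marker of cells licensed for replication, was at 312, 306, 271 and 278 CPM across culture 1 to 4, 276, 221, 318 and 253 across lymphatic 1 to 4 and 298, 349.7, 292 and 279 across hematogenous 1 to 4. Its 3 groups overlapped, and its log2 difference was −0.13 ± 0.12 (adjusted p = 0.478) in lymphatic and 0.06 ± 0.12 (adjusted p = 0.756) in hematogenous libraries, and −0.11 ± 0.11 and 0.07 ± 0.10 without lymphatic 4.

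Of the clamp and polymerase genes, Pcna, the clamp itself, was at 352, 292, 316 and 306 CPM across culture 1 to 4, 285, 302, 256 and 449 across lymphatic 1 to 4 and 222, 271, 277 and 293 across hematogenous 1 to 4. Lymphatic 4 was the highest library of all, and 3 of 4 hematogenous libraries were below culture. Its log2 difference in hematogenous libraries was −0.25 ± 0.16 (adjusted p = 0.281), and −0.25 ± 0.09 without lymphatic 4, which passed. In lymphatic libraries it was 0.03 ± 0.16 (adjusted p = 0.910), and −0.18 ± 0.10 without lymphatic 4. Pola1, the catalytic subunit of the polymerase that starts new strands, with a transcript of 5346 bases, was at 119, 125, 135 and 128 CPM across culture 1 to 4, 189, 205, 153 and 86.8 across lymphatic 1 to 4 and 168, 180.0, 171 and 205 across hematogenous 1 to 4. All lymph node libraries other than lymphatic 4 were above culture, and lymphatic 4 was below it. The log2 difference of Pola1 was 0.32 ± 0.20 (adjusted p = 0.257) in lymphatic and 0.51 ± 0.20 (adjusted p = 0.0723) in hematogenous libraries, and 0.52 ± 0.10 and 0.51 ± 0.09 without lymphatic 4, when both passed.

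Of the licensing genes, Cdt1, which loads the helicase with Cdc6, was at 61.1, 69.5, 54.1 and 56.0 CPM across culture 1 to 4, 49.3, 31.6, 54.2 and 81.1 across lymphatic 1 to 4 and 59.8, 66.2, 58.8 and 58.5 across hematogenous 1 to 4. Lymphatic 4 was the highest and lymphatic 2 the lowest library. Its log2 difference was −0.15 ± 0.21 (adjusted p = 0.632) against culture and −0.17 ± 0.21 (adjusted p = 0.589) against hematogenous libraries, and −0.43 ± 0.15 and −0.45 ± 0.15 without lymphatic 4, when both passed. The log2 difference of Orc1 in hematogenous libraries against culture was −0.36 ± 0.13 (adjusted p = 0.0547), and −0.35 ± 0.11 without lymphatic 4, which passed. Cdt1 and E2f1 have transcripts of 58.8% and 57.9% GC, and their lowest lymphatic value was in lymphatic 2, where rho against GC content was the most negative of the 12 libraries. With the offset for length and GC content, on all 12 libraries, their lymphatic differences against culture were −0.05 ± 0.10 and −0.24 ± 0.11. Without the offset they were −0.15 ± 0.21 and −0.39 ± 0.18. Gins2 and Aurkb, with 53.4% and 52.5% GC, also had their lowest lymphatic value in lymphatic 2. Whether GC content has a part in these differences was not tested.

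Of the checkpoint and kinase genes of mitosis, Bub1b, the BubR1 protein of the mitotic checkpoint complex, was at 473, 478, 506 and 480.2 CPM across culture 1 to 4, 566, 539.7, 551 and 319 across lymphatic 1 to 4 and 626, 527, 585 and 627 across hematogenous 1 to 4. Lymphatic 4 was far below every other library, and the hematogenous libraries were above culture. Its log2 difference in hematogenous libraries was 0.29 ± 0.15 (adjusted p = 0.195), and 0.29 ± 0.07 without lymphatic 4, which passed. Aurkb, the kinase of the chromosomal passenger complex, was at 155, 157, 154 and 143 CPM across culture 1 to 4, 139, 105, 132 and 142 across lymphatic 1 to 4 and 153, 141, 153 and 157 across hematogenous 1 to 4. All lymphatic libraries were below all culture libraries, by the least margin in lymphatic 4. Its log2 difference was −0.23 ± 0.11 (adjusted p = 0.122) against culture and −0.22 ± 0.11 (adjusted p = 0.146) against hematogenous libraries, and −0.29 ± 0.09 and −0.28 ± 0.09 without lymphatic 4, when both passed. Cdk1, the kinase that drives mitosis, was at 217, 207, 222 and 216 CPM across culture 1 to 4, 228, 243, 191 and 323 across lymphatic 1 to 4 and 199, 181, 205 and 220.1 across hematogenous 1 to 4. Lymphatic 4 was the highest library, and the rest overlapped. Its log2 difference was 0.19 ± 0.14 (adjusted p = 0.332) in lymphatic and −0.10 ± 0.14 (adjusted p = 0.655) in hematogenous libraries, and 0.03 ± 0.09 and −0.10 ± 0.08 without lymphatic 4. The log2 difference of Ccnb1 between the routes was 0.31 ± 0.12 (adjusted p = 0.0841), and 0.33 ± 0.11 without lymphatic 4, which passed.

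Of the motor, spindle and kinetochore genes, Kif11, the kinesin that pushes spindle poles apart, was at 414, 456, 459 and 454 CPM across culture 1 to 4, 568, 572, 451 and 374 across lymphatic 1 to 4 and 382, 320.4, 416 and 407 across hematogenous 1 to 4. Lymphatic 1 and 2 were the highest libraries and hematogenous 2 the lowest. Its difference between the routes was 0.36 ± 0.14 (adjusted p = 0.0738), and 0.47 ± 0.10 without lymphatic 4, which passed. Kif20a, another cytokinesis kinesin, was at 168, 167, 177 and 149.7 CPM across culture 1 to 4, 198, 208, 174 and 92.4 across lymphatic 1 to 4 and 163, 149, 153 and 153 across hematogenous 1 to 4. Lymphatic 4 was far below the rest. Its log2 difference in lymphatic libraries was 0.02 ± 0.19 (adjusted p = 0.943) against culture and 0.12 ± 0.19 (adjusted p = 0.684) against hematogenous libraries, and 0.22 ± 0.08 and 0.32 ± 0.08 without lymphatic 4, when both passed. Cenpf, a kinetochore protein with a transcript of 11130 bases, was at 237, 269, 282 and 277 CPM across culture 1 to 4, 349, 369.6, 305 and 130.0 across lymphatic 1 to 4 and 434, 287, 350.3 and 391 across hematogenous 1 to 4. Every lymph node library but lymphatic 4 was above culture. The log2 difference of Cenpf was 0.12 ± 0.25 (adjusted p = 0.768) in lymphatic and 0.46 ± 0.25 (adjusted p = 0.196) in hematogenous libraries, and 0.35 ± 0.12 and 0.46 ± 0.11 without lymphatic 4, when both passed. Tpx2, which activates Aurka on the spindle, was at 215, 211, 227 and 204 CPM across culture 1 to 4, 272, 289, 237 and 213 across lymphatic 1 to 4 and 249, 194, 241 and 224 across hematogenous 1 to 4. Lymphatic 1 to 3 were above culture, and hematogenous 2 below it. Its log2 difference in lymphatic libraries was 0.24 ± 0.12 (adjusted p = 0.152), and 0.31 ± 0.09 without lymphatic 4, which passed. The log2 difference of Kif23 in lymphatic libraries was 0.23 ± 0.15 (adjusted p = 0.276), and 0.36 ± 0.09 without lymphatic 4, which passed.

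Of the chromosome and anaphase genes, Top2a, which untangles sister chromatids, was at 1081, 1186, 1203 and 1129 CPM across culture 1 to 4, 1517, 1721, 1304 and 864 across lymphatic 1 to 4 and 1230.5, 1135, 1300.2 and 1339 across hematogenous 1 to 4. Lymphatic 1 and 2 were the highest libraries and lymphatic 4 the lowest. Its log2 difference was 0.23 ± 0.17 (adjusted p = 0.329) against culture and 0.11 ± 0.17 (adjusted p = 0.666) against hematogenous libraries, and 0.39 ± 0.09 and 0.27 ± 0.09 without lymphatic 4, when both passed. Mki67 was at 1072, 1267, 1292 and 1208 CPM across culture 1 to 4, 1360.0, 1409, 1234 and 422 across lymphatic 1 to 4 and 1816, 1584, 1716 and 1886 across hematogenous 1 to 4. All hematogenous libraries were above all others. Its log2 difference was 0.53 ± 0.27 (adjusted p = 0.165) in hematogenous libraries and −0.13 ± 0.27 (adjusted p = 0.762) in lymphatic libraries against culture, and −0.66 ± 0.27 (adjusted p = 0.0910) between the routes. Without lymphatic 4 these became 0.53 ± 0.08, 0.14 ± 0.09 and −0.40 ± 0.09, and the first and last passed. Cdc20, which activates the anaphase-promoting complex, was at 139, 124, 123 and 129 CPM across culture 1 to 4, 135, 111, 131 and 169 across lymphatic 1 to 4 and 181, 141, 157 and 132 across hematogenous 1 to 4. Its groups overlapped, with hematogenous 1 the highest library. Its log2 difference was 0.25 ± 0.14 (adjusted p = 0.206) in hematogenous libraries and −0.16 ± 0.13 (adjusted p = 0.400) between the routes, and 0.25 ± 0.10 and −0.29 ± 0.10 without lymphatic 4, when both passed.

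The other 19 genes passed in neither fit. They are the helicase genes Mcm2, Mcm3, Mcm4, Mcm7 and Cdc45, the polymerases Pold1 and Pole, Rrm1 and Rrm2 of ribonucleotide reductase, Orc6, Ccne1, Ccna2 and Cdk1 of the cyclins and their kinase, the checkpoint genes Mad2l1 and Ttk, Plk1, Birc5, the kinetochore motor Cenpe, and Ube2c. Their changes in the fit of all libraries ran from −0.25 (Pole) to 0.37 (Birc5) in lymphatic libraries, from −0.24 (Cdc45) to 0.15 (Pold1) in hematogenous libraries and from −0.36 (Mcm4) to 0.39 (Birc5) between the routes, with SE of 0.10 to 0.29. Without lymphatic 4 the ranges were −0.25 (Plk1) to 0.22 (Cenpe), −0.25 (Cdc45) to 0.16 (Pold1) and −0.31 (Pold1) to 0.22 (Ttk). A p above the threshold does not show that these levels were the same.

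The wider machinery showed single genes changed in both directions too. Of 54 other replication genes, 6 rose and 2 fell in lymphatic libraries, 6 rose and 4 fell in hematogenous libraries, and 6 were higher and 9 lower in lymphatic than in hematogenous libraries. Called in either direction were 14.8%, 18.5% and 27.8% of them, where 26.4%, 27.8% and 22.3% of all genes tested were. Their median log2 differences were 0.02, 0.06 and 0.06, against 0.04, −0.00075 and 0.03 over all genes. Values in parentheses below are group means ± SD in CPM, log2 differences ± SE and edgeR adjusted p. Orc5, an origin recognition subunit, rose in lymphatic libraries (85.4 ± 12.9 against 58.9 ± 2.96 CPM, 0.54 ± 0.12, adjusted p = 0.00409), as did Dck, a nucleoside salvage kinase (173 ± 14.7 against 120.3 ± 5.89 CPM, 0.52 ± 0.12, adjusted p = 0.00500). Chaf1b of the histone chaperone CAF-1 rose in hematogenous libraries (72.3 ± 14.4 against 39.6 ± 4.10 CPM, 0.87 ± 0.15, adjusted p = 0.000666), as did Dscc1, a subunit of an alternative clamp loader (21.9 ± 3.18 against 12.3 ± 1.56 CPM, 0.83 ± 0.17, adjusted p = 0.00214). Pola2, the accessory subunit of the polymerase of Pola1, fell in hematogenous libraries (89.1 ± 2.83 against 153 ± 6.88 CPM, −0.78 ± 0.09, adjusted p = 1.79e-05) and was higher in lymphatic than in hematogenous libraries by 0.60 ± 0.09 (adjusted p = 0.000493). Ticrr, which helps start replication, fell in lymphatic libraries against culture (−0.67 ± 0.22, adjusted p = 0.0412) and was lower than in hematogenous libraries (−0.81 ± 0.22, adjusted p = 0.0196), with −0.44 and −0.58 without lymphatic 4. Pold4, the smallest subunit of polymerase delta, and Dnmt1, which methylates new DNA, were lower in lymphatic than in hematogenous libraries, with log2 differences of −0.93 ± 0.29 (adjusted p = 0.0323) and −0.82 ± 0.21 (adjusted p = 0.0127), which were −1.34 and −0.62 without lymphatic 4.

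Of 54 other mitosis genes, 3 rose and 3 fell in lymphatic libraries, 7 rose and 8 fell in hematogenous libraries, and 3 were higher and 4 lower in lymphatic than in hematogenous libraries. Called in either direction were 11.1%, 27.8% and 13.0% of them, beside the same 26.4%, 27.8% and 22.3% of all genes. Their median log2 differences were 0.03, −0.04 and 0.04. Racgap1, the partner of Kif23 at the central spindle, rose in hematogenous libraries (303 ± 40.7 against 159 ± 10.6 CPM, 0.93 ± 0.12, adjusted p = 3.82e-05) and was lower in lymphatic than in hematogenous libraries, with a log2 difference of −0.85 ± 0.12 (adjusted p = 0.000268). Cenpn, a centromere protein, rose in hematogenous libraries (90.2 ± 17.5 against 53.5 ± 3.95 CPM, 0.75 ± 0.14, adjusted p = 0.00104) and was likewise lower in lymphatic ones (−0.55 ± 0.14, adjusted p = 0.0128). Pttg1, the securin that holds separase, and Kif20b, a cytokinesis kinesin, fell in hematogenous libraries (12.8 ± 0.550 against 21.8 ± 2.93 CPM, −0.77 ± 0.20, adjusted p = 0.00891, and 159 ± 6.33 against 270.0 ± 17.4 CPM, −0.76 ± 0.21, adjusted p = 0.0151). In lymphatic libraries Incenp of the passenger complex fell (273 ± 44.1 against 382 ± 10.5 CPM, −0.48 ± 0.11, adjusted p = 0.00582), as did the kinesin Kif18a (−0.48 ± 0.14, adjusted p = 0.0223), and the condensin subunit Smc4 (0.45 ± 0.12, adjusted p = 0.0100) and the phosphatase Cdc25c (0.41 ± 0.12, adjusted p = 0.0235) rose. Ube2s of the anaphase-promoting complex and Nuf2 of the kinetochore were higher in lymphatic than in hematogenous libraries, by 0.63 ± 0.14 (adjusted p = 0.00658) and 0.55 ± 0.10 (adjusted p = 0.00158). With lymphatic 4 left out these counts became 9 and 6, 10 and 15, and 14 and 5 of the 54, and for the other replication genes 12 and 5, 15 and 9, and 8 and 10, where 35.6%, 43.1% and 31.5% of all genes were called in either direction.

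Of 41 cell cycle regulators tested, 1 rose and 8 fell in lymphatic libraries, 4 rose and 8 fell in hematogenous libraries, and 1 was higher and 7 lower in lymphatic than in hematogenous libraries. Called in either direction were 22.0%, 29.3% and 19.5% of them, beside 26.4%, 27.8% and 22.3% of all genes. Of all genes, 13%, 13.9% and 10.9% were called lower. Their median log2 differences were −0.17, 0.02 and −0.08. Myc itself was at 577 ± 97.5 against 599 ± 54.2 CPM in lymphatic against culture libraries (−0.05 ± 0.13, adjusted p = 0.798) and at 638 ± 58.5 CPM in hematogenous libraries (0.09 ± 0.13, adjusted p = 0.668), so neither change passed. The inhibitors of division Cdkn1b, Cdkn1a and Btg2 fell in both lymph node groups, which share the culture libraries. Cdkn1b, the p27 inhibitor of cyclin-dependent kinases, fell by 0.63 ± 0.10 (adjusted p = 0.000385) in lymphatic and by 0.51 ± 0.10 (adjusted p = 0.00149) in hematogenous libraries. Cdkn1a, the p21 inhibitor, fell from 6.59 ± 1.02 CPM in culture to 3.54 ± 0.458 CPM (−0.89 ± 0.26, adjusted p = 0.0214) and 2.69 ± 1.09 CPM (−1.28 ± 0.28, adjusted p = 0.00283). The antiproliferative gene Btg2 fell by 1.07 ± 0.16 (adjusted p = 0.000204) and 1.41 ± 0.16 (adjusted p = 1.35e-05). Its relative Btg1 fell in lymphatic libraries (79.0 ± 11.7 against 139 ± 7.29 CPM, −0.81 ± 0.14, adjusted p = 0.000763) and was lower there than in hematogenous libraries, with a log2 difference of −1.10 ± 0.14 (adjusted p = 0.000165). Mybl2, a factor of the complex that turns on mitosis genes, fell by 0.63 ± 0.17 (adjusted p = 0.0125) in lymphatic and 0.53 ± 0.17 (adjusted p = 0.0270) in hematogenous libraries. Foxm1, which acts with it, did not pass, with log2 differences of −0.40 ± 0.18 (adjusted p = 0.114) in lymphatic libraries, 0.12 ± 0.18 (adjusted p = 0.682) in hematogenous libraries and −0.52 ± 0.18 (adjusted p = 0.05004) between the routes. Without lymphatic 4 Foxm1 passed in lymphatic libraries against culture (−0.22) and against hematogenous libraries (−0.34). In hematogenous libraries E2f2 (225 ± 31.8 against 116 ± 6.19 CPM, 0.96 ± 0.13, adjusted p = 5.23e-05) and Cdk6, a kinase of G1 (226 ± 30.9 against 126 ± 6.28 CPM, 0.85 ± 0.16, adjusted p = 0.000973), rose, and E2f5 fell (−0.62 ± 0.16, adjusted p = 0.0108), beside the fall of E2f1. Cdk6, the E2F partner Tfdp2 and the E2F inhibitor Rb1 were lower in lymphatic than in hematogenous libraries, with log2 differences of −1.23 ± 0.16 (adjusted p = 0.000163), −0.96 ± 0.21 (adjusted p = 0.00527) and −0.83 ± 0.20 (adjusted p = 0.00808), which were −1.09, −0.75 and −0.64 without lymphatic 4. The 42 regulators tested without lymphatic 4 gave 2 higher and 16 lower, 10 and 10, and 1 and 11. These are 42.9%, 47.6% and 28.6% in either direction, where 35.6%, 43.1% and 31.5% of all genes were called.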

How the data were processed

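Poly(A) RNA of the 12 libraries was sequenced in stranded single-end reads, per the labels' protocols. The authors used FastQC 0.11.9, Trimmomatic 0.39, HISAT2 2.1.0 and HTSeq 2.0.2 with build GRCm39, per the submitters' processing notes. The annotation release and strand setting of counting are not given in the sources used here. The deposited files hold raw counts per gene ID, without normalization. Reads not assigned to a gene, 30.3% to 36.5% per library, stand in 5 extra lines of each file and were set aside.

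Symbols came from an older GENCODE annotation (91.8% of IDs, 98.8% or more of counts), and transcript length and GC content from its APPRIS principal transcripts. Differences were tested by the quasi-likelihood F test of edgeR 4.0.16 (R 4.3.3) on the counts, after TMM scaling and filterByExpr, with group as the factor and all 12 libraries fitted together (13535 genes, 9 residual degrees of freedom), two-sided, with Benjamini-Hochberg adjustment over all genes tested and a threshold of 0.05. Each SE is approximate, as the size of the log2 change over the root of F. CPM and levels on the log2 scale (prior count 2) were computed from the deposited counts. The script was tested on simulated data. Depth limits precision most in the shallowest library, with 5286775 counts, and reads without molecular identifiers are not independent molecules.

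Groups were taken from the titles. The members and gene lists were chosen with earlier results of these data known. Values per library are printed for members that passed in the fit of all libraries or without lymphatic 4, and for Mcm2, Pcna, Ccne1, E2f1, Ccnb1, Cdk1, Top2a and Mki67. From each list of other genes up to 4 per comparison are named, the largest changes among those with adjusted p under 0.05 whose higher group averages at least 10 CPM, and Myc, Foxm1, Mybl2, Cdkn1a and Cdkn1b always. A gene that this rule picks is not reported here. Of 267 list names 2 were not matched, and the ID with more counts kept any of the 67 symbols that several IDs share. Alternatives were DESeq2 1.42.0, limma 3.58.1 (voom), other scalings and filters, fewer libraries, the replicate number as a block, and an offset for length and GC content. Replicate numbers are not stated to pair samples. Promoter windows came from RefSeq (GRCm38.p6). Positions on GRCm39 are not given.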

Additional observations from a re-analysis of the deposited data

Results flagged for a closer look

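Values that stand apart from the other 3 libraries of their group, by Dixon's criterion at the 95% level, were looked for in 147 sets of 4 values, the 46 genes and both subset levels and their difference in each group. It was met in 12 sets, and chance meets it in about 1 in 20. Of the 12, 4 were in lymphatic 4: Pole at 54.98 CPM and Bub1b at 319 CPM were low there, and Birc5 at 280 CPM and Ube2c at 340.3 CPM were high. Pole and Bub1b have transcripts of 7163 and 3668 bases and Birc5 and Ube2c of 947 and 967 bases. In lymphatic 2, Cdc6 was high at 122 CPM. In culture 1, Plk1 was high at 105 CPM and Kif11 low at 414 CPM, and in culture 4 Aurkb was low at 143 CPM. Hematogenous 1 was low in Rfc3, at 51.9 CPM, and in Rrm2, at 176 CPM. Hematogenous 2 was high in Mcm5, at 406 CPM, and in Cdt1, at 66.2 CPM.

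The change against culture differed between the lymph node groups, tested directly by edgeR as lymphatic against hematogenous, in 5 genes: Aurka (0.57, adjusted p = 0.00974), Bub1 (0.53, adjusted p = 0.0284), Cdc6 (0.49, adjusted p = 0.00870), Tyms (0.47, adjusted p = 0.0248) and Orc1 (0.46, adjusted p = 0.0202). In Aurka and Bub1 hematogenous libraries had fallen against culture and lymphatic ones had not passed, and in Cdc6 lymphatic libraries had risen and hematogenous ones had not passed. In Tyms and Orc1 neither group had passed against culture. Route and day cannot be told apart in these differences.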

How the results depend on the processing

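No result changed direction among the calls. In lymphatic against culture libraries the 5 members called higher became 3 with limma-voom, 3 with total counts in place of TMM, 2 with no filter on low counts, 1 in a fit of those groups only, 2 with the replicate number as a block and 0 to 13 with 1 library left out. Over all genes the 1816 called higher became 1631, 1526, 2239, 1225 and 1428 in those analyses in turn, and 1317 to 2440 with 1 library left out. The 0 called lower became 1 with total counts, 4 without lymphatic 4 and culture 4, 2 with the offset for transcript length and GC content (chosen after seeing the data), and 0 to 4 with 1 library left out. Over all genes the 1753 called lower became 1883, 2128 and 2203 in turn, and 1341 to 2468 with 1 library left out. With the offset 4 members other than those 5, and 2151 of all genes, were called higher. The S phase median of 0.03 became −0.036 with total counts and 0.013 to 0.075 with 1 library left out. In hematogenous against culture libraries the 2 members called higher became 1 with limma-voom, 1 with total counts, 4 with no filter, 10 in a fit of those groups only, 6 without lymphatic 4 and culture 4, 0 with the block, 8 with the offset and 0 to 9 with 1 library left out. Over all genes the 1880 called higher became 1721, 1756, 2043, 3150, 2609, 1645 and 2531 in those analyses in turn. The 4 called lower became 9 in a fit of those groups only, 10 with the offset and 2 to 6 with 1 library left out. Over all genes the 1880 called lower became 3194 in that fit and 2616 with the offset. The mitosis median of this comparison, 0.08, became −0.0036 with the offset. Between the routes the 5 members called higher became 2 in a fit of those groups only, 9 without lymphatic 4 and culture 4, 3 with the block and 2 to 10 with 1 library left out. Over all genes the 1542 called higher became 910, 1928 and 1116 in those analyses in turn. The 0 called lower became 2 with DESeq2, 1 with no filter, 3 without lymphatic 4 and culture 4, 4 with the offset and 0 to 4 with 1 library left out. Its S phase median of 0.15 became 0.050 without lymphatic 4 and culture 4 and 0.043 to 0.17 with 1 library left out. Over all genes, a fit of the compared groups only moved calls from 1880 to 3150 higher and 1880 to 3194 lower in hematogenous against culture libraries, and from 1542 to 910 higher and 1470 to 824 lower between the routes. With 1 library left out they ran from 1545 to 2995 and 1580 to 2935, and from 930 to 2080 and 1072 to 2253. Fewer libraries were fitted where some were left out, and the cause of these moves was not tested. Hematogenous against culture differences hold no lymphatic library, and lymphatic 4 enters them through the spread, scaling and filter of the joint fit. With and without lymphatic 4, Mki67 there was 0.53 ± 0.27 and 0.53 ± 0.08, and Bub1b 0.29 ± 0.15 and 0.29 ± 0.07.

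Libraries of the same replicate number did not deviate together (12 pairs, correlation −0.181 to 0.0919, 0 over 0.1). Trends of single libraries enter these correlations, so they cannot show whether the numbers pair samples, and the block tests a shared number only. Of the 16 calls of single members, Bub1 and Ccne2 lower in hematogenous against culture libraries and Cdc6 and Aurka higher in lymphatic against hematogenous libraries passed in all 23 alternatives each.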
